A study of Mus musculus with 47 samples.

Results

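The genes described here are the nuclear genes of oxidative phosphorylation (OXPHOS) in mouse induced pluripotent stem cells (iPSCs). They were chosen by symbol, as genes beginning with Nduf, with Cox and a digit, with Uqcr or with Atp5 and the genes Sdha to Sdhd, without pseudogenes. The rule found 88 of the 13947 genes with allelic read counts, 86 on autosomes and 2 on the X chromosome (Ndufb11 and Cox7b). Reads were found for 85 of them, and 68, of which 66 were autosomal, averaged 5 or more counts per cell. No read was assigned to an allele for Ndufa2, Cox20 and Cox4i2.

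The respiratory chain of the inner mitochondrial membrane passes electrons from NADH (complex I) and succinate (complex II) through complex III to oxygen at complex IV, and complex V uses the proton gradient to make ATP. Most subunits are encoded in the nucleus and imported, while the mitochondrial DNA, inherited from the mother, encodes core subunits of complexes I, III, IV and V but none of complex II. Assembly factors insert cofactors and join the subunits, and most do not stay in the finished complex. Pluripotent cells rely strongly on glycolysis, and naive cells are known to keep an active respiratory chain beside it.

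The data were single-cell RNA sequencing counts of 47 female iPSCs on 1 plate. All cells came from MEFs of a female Mus musculus musculus (Mus, X129 in the column names) carrying an X-linked eGFP transgene crossed with a male Mus musculus castaneus (Cast), and all had been reprogrammed with lentiviral OSKM and kept in serum and LIF. The labels name ascorbic acid in the medium, as does the culture section of the methods. For iPSC controls the methods also describe later passages without it. By the X-linked reads, 23 cells retained both X chromosomes (X-Mus X-Cast), 15 had lost the Mus X (X-Cast O-Mus) and 9 had lost the Cast X (X-Mus O-Cast). The labels name no separate clones, cultures or animals for these classes, so cells were not treated as replicates of a culture and differences are given as values without a test.

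Each cell had 71682 to 216451 allelic counts, 57118 to 176055 of them on autosomes. All 14 listed pluripotency markers were measured, from Tdgf1, Tet1, Dppa4 and Utf1 with reads in all 47 cells to Pecam1 with reads in 36, Prdm14 in 35, Klf4 in 33 and Klf2 in 18. Of the 8 fibroblast markers measured, Col1a2, Postn, Lum and Dcn had no read and Col1a1 had reads in 4 cells, whereas Fn1 had reads in 47 and Vim in 34. The X-Mus O-Cast cell in well E04 was the shallowest cell and stood apart from all others, and the main comparisons are given with and without it.

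Nuclear respiratory factor 1 (NRF1) and the ETS-family factor GABP are known activators of nuclear OXPHOS genes. Promoters were available for 74 of the 88 genes (RefSeq, GRCm38.p6). Within 250 bases upstream of the start, the NRF1 motif (GCGCA and GCGC with any base between them) was found on either strand in 12 of these promoters (16.2%), compared with 3.89% of all 26794 promoters. The ETS motif CCGGAAG was found in 15 (20.3%), compared with 7.11% of all promoters. The YY1 motif AAGATGGC was found in 1 (1.35%, all promoters 1.60%). Cox6a1, Atp5h and Sdhd held both the NRF1 and the ETS motif. The windows of 6 genes described below are printed with the motif on either strand in capitals, 5′ to 3′ on the strand of the gene, to show the sequence that a minority of the promoters held.
Ndufs6, NRF1, chr13:73328483-73328523, minus strand: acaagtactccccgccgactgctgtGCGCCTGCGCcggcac
Sdha, NRF1, chr13:74350304-74350363, minus strand: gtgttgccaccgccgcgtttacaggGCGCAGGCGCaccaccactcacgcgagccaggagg
Sdhd, NRF1, chr9:50603894-50603953, minus strand: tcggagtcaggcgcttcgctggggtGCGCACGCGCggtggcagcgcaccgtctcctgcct
Sdhd, ETS, chr9:50603864-50603920, minus strand: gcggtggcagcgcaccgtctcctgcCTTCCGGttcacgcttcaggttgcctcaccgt
Cox6a1, NRF1, chr5:115349086-115349145, minus strand: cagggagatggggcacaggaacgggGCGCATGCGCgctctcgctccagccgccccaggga
Cox6a1, ETS, chr5:115348959-115348999, minus strand: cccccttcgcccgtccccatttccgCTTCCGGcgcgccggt
Cox10, ETS, chr11:64079473-64079524, minus strand: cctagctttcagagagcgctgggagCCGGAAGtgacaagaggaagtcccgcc
Atp5k, NRF1, chr5:108434415-108434474, minus strand: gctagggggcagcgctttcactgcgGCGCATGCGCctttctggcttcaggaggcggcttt

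The 86 autosomal OXPHOS genes made up 3.57% of all autosomal allelic counts (213517 of 5976347). Over single cells the percentage was 2.57 at its lowest, 3.54 at the median and 7.21 at its highest, and without E04 the highest was 4.49. Of the counts of these 86 genes, the complex I subunits supplied 40.7%, the 4 of complex II 5.45% and the 7 of complex III 14.1%. The complex IV subunits supplied 16.99% and the 13 of complex V 17.1%. The X-linked subunits Ndufb11 (complex I) and Cox7b (complex IV) were left out of these percentages. The 7 assembly factors of complex I and the 9 of complex IV supplied 2.42% and 2.67%. Among the latter, Cox7a2l had 3335 counts, the most of the group, and is known to stay bound in supercomplexes of complexes III and IV. These shares also depend on how many SNPs each gene carries, since only reads over a SNP were assigned to an allele. Cox6c with 50 counts, Uqcrq with 11 and Cox6b1 with 4 counts over all cells were near the lower end.

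Levels of different genes were set side by side as counts per 1000000 autosomal counts (CPM) per kilobase of annotated exon, without correction for SNP density. The exon length was the union over all annotated transcripts of a gene, so that a long annotation lowers the level per kilobase. In complex I the highest such levels were found for the accessory subunits Ndufs6 (1361 CPM per kilobase), Ndufb3 (1258) and Ndufb6 (1210). Ndufs6 had 449 CPM in the lowest cell, 1195 at the median and 4359 in the highest, which was E04 (2174 in the next). In complex II, Sdhc, a membrane anchor, had 296 CPM per kilobase, Sdha, the flavoprotein that oxidizes succinate, had 148, and Sdhd, the other anchor, had 116. Sdhc ranged from 97.8 CPM through a median of 923 to 1871.

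The complex III subunit Uqcr10 had the highest level per kilobase of all members (1956 CPM per kilobase), followed in that complex by the core protein Uqcrc1 (733) and the Rieske iron-sulfur protein Uqcrfs1 (223). Uqcrc1 had the most counts of any member, 18208, with 1085 CPM in the lowest cell, 2905 at the median and 5541 in the highest. In complex IV, Cox4i1, the ubiquitous form of the largest nuclear subunit, had 1293 CPM per kilobase, and the small subunits Cox8a and Cox6a1 had 1054 and 1037. Cox4i1 ranged from 1080 CPM through 1844 to 6128, again in E04 (3138 in the next). In complex V the highest levels per kilobase were lower than in complexes I, III and IV, with 352 for Atp5d and 309 for Atp5c1, subunits of the rotor stalk, and 290 for Atp5f1 of the peripheral stalk. Atp5f1 had a mean of 1191 CPM over 4105 bases of annotated exon.

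The tissue-restricted paralogs ranged from no read to reads in nearly all cells. Cox4i2, the lung-type form of Cox4i1, had no allelic read. The testis-type Cox6b2 had 933 counts in 46 cells with a median of 131 CPM. Cox7b2, another testis-type form, had 137 counts in 11 cells, none of them X-Cast O-Mus. Ndufa4l2, known as a hypoxia-induced relative of Ndufa4, had 204 counts in 12 cells, and 1 cell held 91.8% of its counts in the X-Cast O-Mus class.

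The Mus share of allelic counts was then examined for the 74 autosomal OXPHOS genes with at least 100 counts. Its median over genes was 46.7% (interquartile range 36.1 to 52.5), beside 45.5% over 6089 autosomal genes. It lay between 40 and 60% for 42 members, under 40% for 24 (37.6% of all genes were under 40%) and over 60% for 8 (16.5% of all genes). The pooled share over all counts of the members was 40.95%, beside 42.9% over all autosomal counts. A share under 5% was found for 10 of the 74 (13.5%, beside 4.06% of all autosomal genes), and 1 was over 95% (all genes 0.755%).

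**Figure D1:**
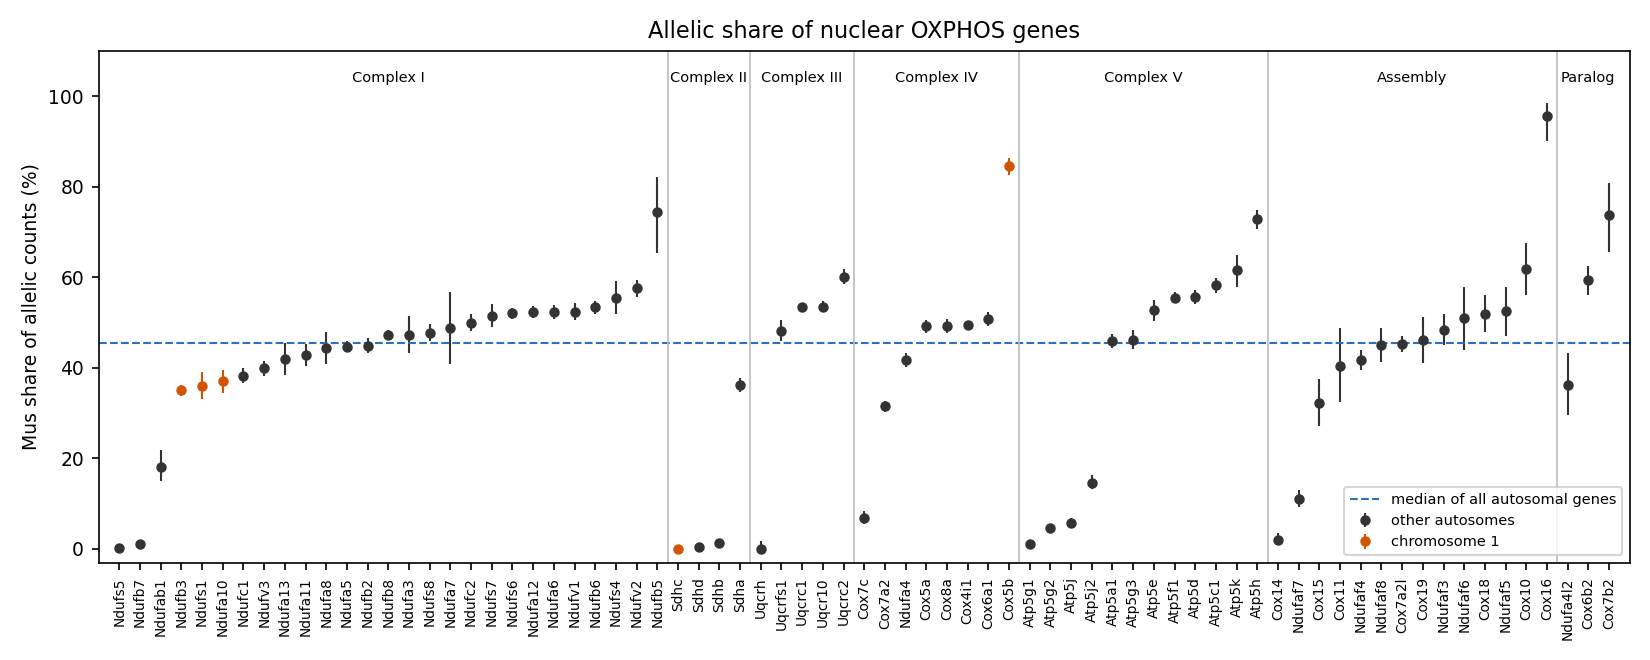
Mus share of allelic counts in percent (vertical axis) for 73 autosomal OXPHOS genes with at least 100 counts, grouped by complex and role, pooled over 47 cells. Bars are 95% Clopper-Pearson intervals, orange points lie on chromosome 1, the dashed line is the median of all autosomal genes (45.5%), and 9 of the genes shown lie under 5%.

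Sdhc was abundant and nearly Cast-only, with 1 Mus count among 5756 (0.0174%), and its share did not exceed 0.926% in any of the 47 cells. It lies on chromosome 1 at 171127165 to 171150603 (GRCm38). Of its 10 nearest genes with a measured share, 7 were under 5%, with a median of 2.47%. The cause was not tested.

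Other genes under 5%, named after their values were seen, lay apart from one another. Uqcrh, the hinge protein of complex III, had 0 Mus counts of 213, which allows a share of up to 1.41% (3 counts). The complex I subunits Ndufs5 and Ndufb7 had 0.225% and 1.07%, and the complex II genes Sdhd and Sdhb, the latter the iron-sulfur subunit, had 0.353% and 1.28%. In complex II, Sdha was therefore the only gene with a substantial Mus share (36.1%, interval 34.6 to 37.7). Cox14, an assembly factor of complex IV, had 1.88%. Neighbouring genes of these members had medians between 23.3 and 49.2%, unlike those of Sdhc.

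Atp5g1, Atp5g2 and Atp5g3 encode the same mature subunit of the c-ring of complex V through different precursors. Their Mus shares were 1.03%, 4.64% and 46.2%, and their counts 6025, 2197 and 2143. Processed copies can divert reads of such genes, and 38.3% of the 50-base windows of Atp5g2 and 11.1% of those of Atp5g1 also occurred in transcripts of another gene. For Ndufs5 this percentage was 21.7, for Cox5b, described next, 11.9, for Uqcrh 3.04, for Sdhc 0.0915, and for Ndufb7, Sdhb, Sdhd and Cox14 0. Their part in the allelic shares was not tested.

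At the other end, Cox16, an assembly factor of complex IV, had a Mus share of 95.7% (115 counts), and 54.2% of its windows occurred elsewhere. Cox5b, a zinc-binding subunit of complex IV, had 84.6% (interval 82.6 to 86.4, 1444 counts), and Ndufb5, a complex I subunit, had 74.3% with 113 counts. Of these, 34 came from E04, all Mus, and without it the share was 63.3% of 79 counts, under the minimum of 100. The share of a member also varied from cell to cell. Among cells with at least 10 counts of the gene, Cox5a, a well-covered complex IV subunit, ranged from 30.6 to 61.4% Mus around a median of 49.0. Uqcr10 ranged from 35.04 to 75.2%, whereas Cox15, the heme A synthase, ranged from 0 to 100% over the 10 cells with enough counts.

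On chromosome 1 the Mus share of all genes was itself uneven over cells. In 43 cells 27.6 to 34.9% of chromosome 1 counts were Mus, and in 4 cells (B01, B04, C01 and G04) 43.96 to 47.7%. Chromosome 1 supplied 7.12 to 10.1% of autosomal counts in the 43 cells and 5.29 to 6.06% in the 4. Of the members on it, Ndufb3 had a Mus share of 34.3% in the 43 cells and 52.2% in the 4, and Ndufa10 had 35.3% and 59.4%. Sdhc stayed close to 0 in both sets, with 0 of 376 counts in the 4 cells (up to 0.798%). The median level of Ndufb3 was 333 CPM in the 4 cells and 916 CPM in the others, that of Cox5b 165 and 252, of Sdhc 720 and 937, of Ndufa10 221 and 243, and of Ndufs1 187 and 170. The OXPHOS percentage was 2.57 to 3.63 (median 3.42, others 3.54).

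**Figure D2:**
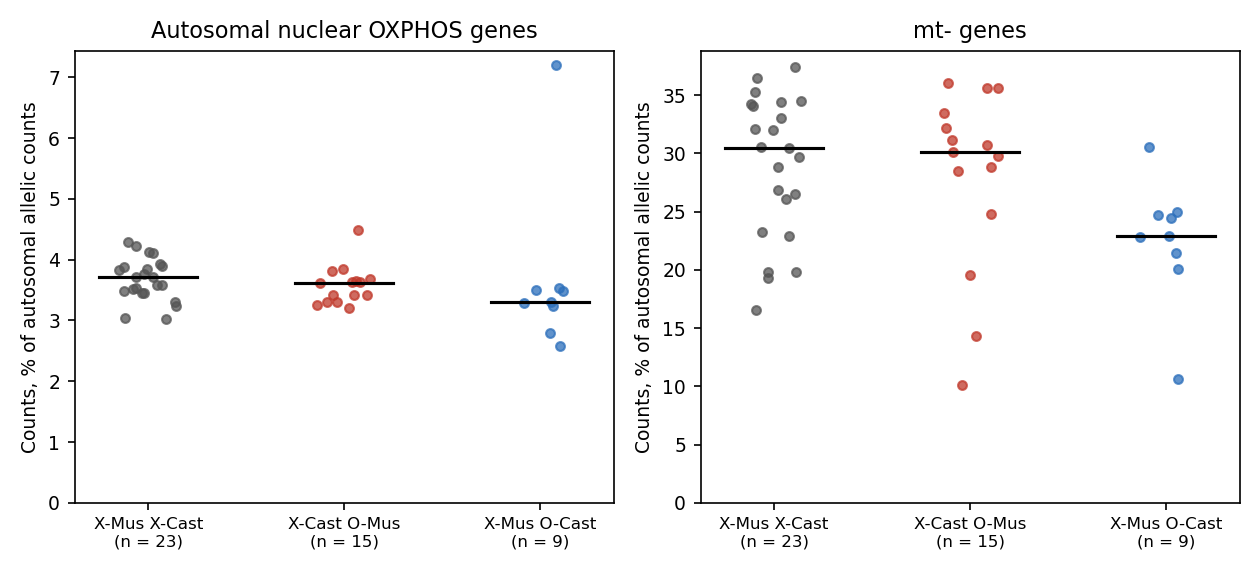
Counts of autosomal OXPHOS genes (left) and of mt- genes (right) as a percentage of the autosomal allelic counts of each cell, by X chromosome class, with 1 point per cell and a line at the median. The OXPHOS values of the 3 classes overlap, and the highest point, 7.21% in the X-Mus O-Cast class, is cell E04.

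The classes were compared to ask whether the loss of an X chromosome went with a different level of the autosomal OXPHOS genes. X-Mus X-Cast cells had between 3.03 and 4.30% of autosomal counts in these genes, with a median of 3.71. X-Cast O-Mus cells had 3.21 to 4.49% with a median of 3.62, which is 0.975 times the former. X-Mus O-Cast cells had 2.57 to 7.21% with a median of 3.31, 0.892 times that of X-Mus X-Cast cells and 0.890 times without E04. The ranges overlapped widely, and 1 of 15 X-Cast O-Mus cells lay above all X-Mus X-Cast cells. Of the 9 X-Mus O-Cast cells, E04 lay above them, and C01 (2.57%) and C06 (2.79%) below. The summed pluripotency markers had class medians of 12123 CPM in X-Mus X-Cast (8035 to 16838), 9953 in X-Cast O-Mus (6223 to 14104) and, for the X-Mus O-Cast class, 10167 (range 5637 to 13450). The summed 8 fibroblast markers, 4 of them at 0, had 653 (213 to 2108), 1581 (586 to 3753) and 647 CPM (99.6 to 1642) in the same order. The part of these in the OXPHOS levels was not tested.

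By complex, the class medians of X-Cast O-Mus cells were 0.925 times those of X-Mus X-Cast cells for complex I, 1.09 for complex II, 1.00 for complex III, 1.01 for complex IV, 0.944 for complex V and 0.874 for assembly factors. In X-Mus O-Cast cells they were 0.929, 0.788, 0.890, 0.971, 0.904 and 0.810 in the same order, and 0.912, 0.821, 0.838, 0.971, 0.903 and 0.760 without E04. For complex II the X-Mus X-Cast cells ranged from 0.101 to 0.391% of autosomal counts and the X-Mus O-Cast cells from 0.0980 to 0.227%, so that the classes overlapped there too. Ribosomal protein genes, which served as another large group of short genes, had ratios of 1.00 and 1.03.

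Fold changes of mean CPM were computed for the 66 autosomal members with 5 or more counts per cell on average. For X-Cast O-Mus cells relative to X-Mus X-Cast cells the median log2 fold change was -0.08 (all 4012 genes 0.00), with 28 members above 0 and 38 below. None was at least 2-fold higher (6.61% of all genes were), and 1 was at least 2-fold lower (5.78% of all genes were), while at 1.5-fold these numbers were 1 (15.6%) and 3 (14.1%). The gene past 2-fold was Cox14, with 93.7 CPM at the median of X-Mus X-Cast cells (15.8 to 299) and 54.9 in X-Cast O-Mus cells (0 to 122), a log2 fold change of -1.07. The ranges overlapped.

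Next lowest was Uqcrfs1, with medians of 350 CPM (179 to 689) and 186 CPM (27.1 to 377) and a log2 fold change of -0.75. Cox18, which helps to insert a mitochondrially encoded subunit of complex IV into the membrane, had -0.64. The highest values were those of Cox10, the heme O synthase, with 0.77, the complex I subunit Ndufa13 with 0.51 and the complex V stalk subunit Atp5h with 0.39. For Ndufa13 the medians were 110 CPM (33.6 to 212) and 146 CPM (62.8 to 276). Cox10 rested on few reads, with medians of 19.5 CPM (0 to 195) and 49.0 CPM (0 to 178).

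For X-Mus O-Cast cells relative to X-Mus X-Cast cells the median log2 fold change was 0.03 (all 3955 genes -0.04), with 37 members above 0 and 29 below. It was -0.22 without E04 (all genes -0.03), with 15 above 0 and 51 below. With all 9 cells it was also below 0 with TMM normalization factors and with Cast counts alone (-0.03 each). Without E04 77.3% of the members and 52.0% of all genes were below 0. Among the 60 members not on chromosome 1 the median without E04 was -0.21, with 45 below 0. With all 9 cells 1 member was at least 2-fold higher (7.48% of all genes) and 1 at least 2-fold lower (10.2% of all genes), and without E04 these numbers were 0 (7.97%) and 2 (9.82%). At 1.5-fold with all 9 cells they were 2 (16.5%) and 6 (20.2%).

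The higher gene was again Cox10, with a median of 62.2 CPM (0 to 333, the highest in E04) in X-Mus O-Cast cells and a log2 fold change of 1.32, or 0.65 without E04. Next came the complex I assembly factor Ndufaf8 (0.88, and 0.36 without E04) and Cox6b2 (0.58, and 0.37 without E04). The lower gene was Cox18, which had 79.2 CPM at the median of X-Mus X-Cast cells (0 to 312) and reads in only 3 of the 9 X-Mus O-Cast cells (0 to 154), a log2 fold change of -1.52 or -1.35 without E04. Without E04 the copper-handling assembly factor Cox19 also passed 2-fold, with -1.59, whereas with all 9 cells it had 0.16.

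Sdhd had medians of 150 CPM (0 to 356) in X-Mus X-Cast and 80.9 CPM (13.6 to 194) in X-Mus O-Cast cells, with a log2 fold change of -0.81, or -0.91 without E04. Atp5c1, the central rotor subunit, had 676 CPM (389 to 891) and 405 CPM (175 to 737), with -0.63, or -0.62 without E04. Both stayed within overlapping ranges. Both contrasts share the X-Mus X-Cast cells.

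**Figure D3:**
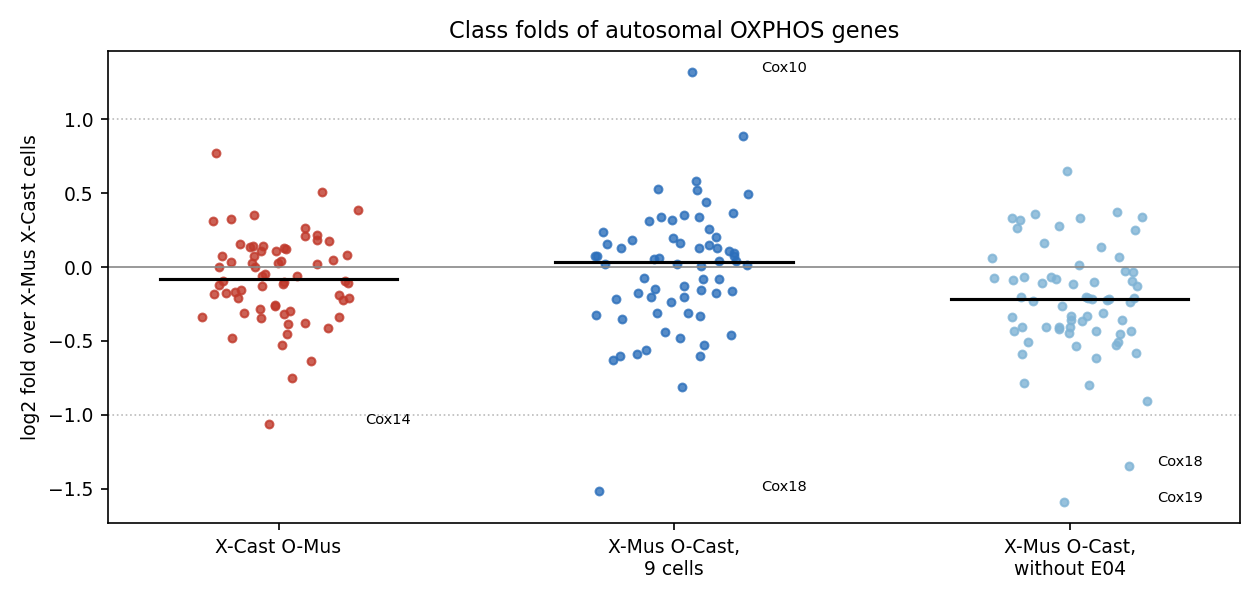
Log2 fold change of mean CPM over X-Mus X-Cast cells for the 66 autosomal OXPHOS genes, with 1 point per gene, a black line at the median and dotted lines at 2-fold. The median of X-Mus O-Cast cells is 0.03 with 9 cells and -0.22 without E04, and genes past 2-fold carry their names.

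The X-linked members Ndufb11, an accessory subunit of complex I, and Cox7b, a small subunit of complex IV, are described without a comparison, since X-linked reads defined the classes. Ndufb11 had a median of 419 CPM (206 to 868) in X-Mus X-Cast, 304 CPM (56.2 to 606) in X-Cast O-Mus and 112 CPM (74.4 to 490) in X-Mus O-Cast cells. In X-Mus X-Cast cells 36.5% of its 1194 counts were Mus (interval 33.8 to 39.3), with a median of 253 CPM from the Cast and 149 CPM from the Mus allele. The X-Cast O-Mus cells had 0 Mus counts of 653 (a share of up to 0.459%), and the X-Mus O-Cast cells had 153 Mus counts of 156. Cox7b had medians of 126 CPM (36.8 to 263), 45.2 CPM (0 to 101) and 42.1 CPM (0 to 193) in the same order. Its Mus share in X-Mus X-Cast cells was 44.7% (interval 39.7 to 49.7, 396 counts), with 71.4 CPM from the Cast and 55.2 CPM from the Mus allele. X-Cast O-Mus cells had 0 Mus counts of 86 (up to 3.49%), and all 77 counts of X-Mus O-Cast cells were Mus.

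Spread over cells was measured by the coefficient of variation (CV) and compared with the trend of all autosomal genes at the same mean level. The median CV was 0.437 over the 66 members and 0.937 over 4033 autosomal genes, which had lower means (median 106 CPM, members 412). The residual of log2 squared CV from the trend, which takes account of the mean, had a median of -0.65, and 51 of the 66 members (77.3%) lay below the trend, as did 49.1% of all genes. Without E04 the median was -0.91 and 56 of 66 (84.8%) lay below. For the 54 structural subunits the median was -0.80 with 44 below the trend, and for the 12 assembly factors and paralogs it was -0.07 with 7 below.

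**Figure D4:**
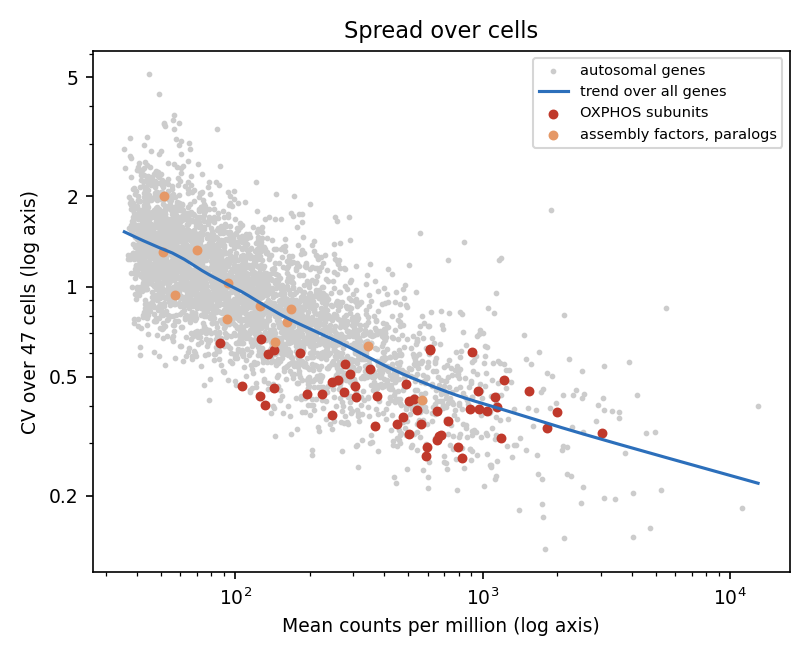
Coefficient of variation over 47 cells against the mean CPM, both on log axes, with 1 point per autosomal gene (grey), OXPHOS subunits in red, assembly factors and paralogs in orange and the trend of all genes in blue. Most red points lie under the line (44 of 54).

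The smallest spread for its level was that of Atp5k, a membrane subunit of complex V, with a CV of 0.401 and a residual of -2.21 (-2.79 without E04). It ranged from 44.9 CPM through 136 to 350 in E04, and to 214 in the other cells. The complex I subunits Ndufa3 and Ndufa13 followed with residuals of -2.08 and -2.07 (-2.53 and -2.04 without E04). The largest residual was that of Cox15 (1.19), which had a median of 0 CPM and reached 539. Ndufa12, a complex I subunit, had 1.07 and Ndufb2, another, had 0.80, and these values were 0.42 and -0.42 without E04. Sdha, chosen after its values were seen, had 0.77 with and 0.79 without E04.

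Cell E04 had 71682 allelic counts and reads of 2918 genes. Its OXPHOS percentage of 7.21 compared with 2.57 to 3.53 in the other 8 X-Mus O-Cast cells. Of the 66 members, 34 (51.5%) were higher in E04 than in each of the other 46 cells, as were 6.50% of all autosomal genes. Ndufb8, a complex I subunit, reached 5217 CPM and Ndufa12 reached 3502. For 51 of the 66 E04 lay above the median of the other cells, as it did for 32.9% of all autosomal genes, and the median exon length was 1550 bases for these and 3250 for the rest. Of the 66, 4 had no read in E04. The median exon length over its counts was 2728 bases (3189 to 3506 in the other X-Mus O-Cast cells), and ribosomal protein genes took 8.45% (4.53 to 5.82). The summed pluripotency markers of E04, 5637 CPM, were the lowest of the 47 cells (6223 or more in the others), with Tfcp2l1 at 52.5 CPM beside a median of 1600. Most of the listed markers lay below their medians. Dppa4 (543 CPM), Utf1 (595) and Klf4 (87.5) lay above theirs (344, 400 and 39.7). Whether the cell or its library differed cannot be told apart.

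The 9 mitochondrially encoded (mt-) genes had 1620088 counts, 99.992% of them Mus, the strain of the mother. Relative to autosomal counts they made up 10.1% in the lowest cell, 28.8% at the median and 37.4% in the highest. Their class medians were 30.5% in X-Mus X-Cast, 30.1% in X-Cast O-Mus and 22.9% in X-Mus O-Cast cells, with ranges of 16.5 to 37.4, 10.1 to 36.1 and 10.6 to 30.5. The X-Mus O-Cast median was thus 0.751 times that of X-Mus X-Cast cells, with 1 of 9 cells below all of the latter.

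Nuclear OXPHOS genes and mt- genes varied together only loosely over the 47 cells. The Pearson correlation between the log2 values of the 2 percentages was 0.23 and the Spearman correlation 0.37, and these were 0.36 and 0.41 without E04. With all allelic counts, mt- reads included, as the denominator of both, the Spearman correlation was -0.19, so that its direction rests on the denominator. Leaving out the 2 cells farthest from the median mt- level gave 0.18 and 0.31. Within classes the Spearman correlation was 0.26 (23 X-Mus X-Cast cells), 0.37 (15 X-Cast O-Mus cells) and 0.47 (9 X-Mus O-Cast cells). All cells share 1 plate, and both percentages share the autosomal denominator. The OXPHOS percentage also went with total depth (Spearman -0.38), with the percentage of ribosomal protein genes (0.42) and with the median exon length of the counts (-0.57), and the part of these in the relation was not tested. The mt- percentage had a Spearman correlation of 0.02 with total depth.

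**Figure D5:**
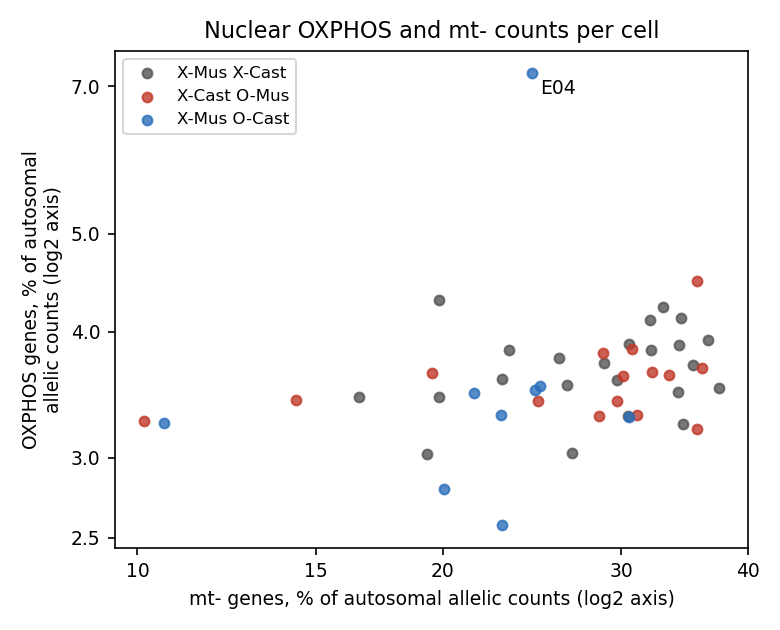
Percentage of autosomal allelic counts in autosomal OXPHOS genes (vertical, log2 axis) against that in mt- genes (horizontal, log2 axis), with 1 point per cell colored by X chromosome class. The points rise weakly from left to right (Spearman correlation 0.37 over 47 cells), with E04 at 7.21%.

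By complex, the Spearman correlation with the mt- level was 0.34 for complex V, 0.26 for complexes I and IV, 0.15 for complex III and 0.01 for complex II. For assembly factors it was 0.21. The cause of these differences was not tested. Over single genes the median correlation with the mt- level was 0.12, with 48 of 66 members above 0 (72.7%), beside 0.02 and 53.6% for all autosomal genes. The highest were Cox5b (0.44) and Cox7a2 (0.42), both of complex IV, and Atp5d (0.40). The lowest were the complex I subunits Ndufv3 (-0.33) and Ndufs4 (-0.26) and the complex V subunit Atp5e (-0.30). The 12 members with an NRF1 motif had a median of 0.19 and the 47 without one a median of 0.11, while for the ETS motif the medians were 0.099 (8 members) and 0.15 (51).

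Members were also compared with each other over the 47 cells. The median Spearman correlation was 0.12 over 431 pairs of subunits of the same complex and 0.07 over 1000 pairs of subunits of different complexes, beside 0.009 over all pairs of autosomal genes. The summed percentages of complexes III and V had a correlation of 0.55, those of complexes IV and V and of I and V 0.40 each, and those of complexes I and III 0.03. The lowest was that of complexes II and IV, -0.12. The summed Cast counts and summed Mus counts of the members, each as a percentage of the autosomal counts of the same allele, had a Spearman correlation of 0.65 (0.62 without E04). Again the cells share 1 plate, and the sums of the complexes share a denominator.

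Other genes of the pathway that the symbol rule did not cover were counted from a list of 38 genes, of which 32 were in the table and 31 had reads. In X-Cast O-Mus cells none of the 23 with enough counts was at least 2-fold higher (6.61% of all genes) and 1 was lower (5.78%), the copper chaperone Sco1 (log2 fold change -1.12). In X-Mus O-Cast cells none of 22 was higher (7.48%) and 2 were lower (10.2%), the complex IV assembly factor Surf1 (-2.05) and Taco1, a translational activator of a mitochondrially encoded subunit (-1.25). Their median log2 fold changes were 0.07 and 0.00 (the latter -0.14 without E04), their median residual of spread was 0.17 (-0.01 without E04) and their median correlation with the mt- level was -0.07. Of 14 regulators of mitochondrial biogenesis, 7 had enough counts and none passed 2-fold in either class, a list too short to set against these shares, with median log2 fold changes of -0.03 and 0.13 (0.28 without E04).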

How the data were processed

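Single-cell RNA-seq of 47 iPSCs was used. The authors deposited raw allelic read counts per gene, 1 column for Cast and 1 for Mus per cell (94 columns). Per the methods, mRNA was captured on oligo-dT beads (G&T-seq), libraries were made with Nextera XT and read single-end, and genes with at least 4 SNPs were kept. The submitters' processing notes name STAR 2.5.3a, SAMtools and mm10. SNPsplit on an N-masked genome and a minimum of 4 SNPs per gene are described together for the allelic analysis of Smart-seq2 libraries. The mapping and filtering of this plate are not given separately in the sources used here. Mapping that favors a strain, SNP density and reads shared with pseudogenes can shift allelic shares and levels.

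Classes followed the published rule, the mean Mus share over X-linked genes with limits of 0.15 and 0.85, which matched the column names for 47 cells. Counts were divided by the autosomal total of a cell (CPM), so that X-linked and mt- reads do not enter the denominator. Gene positions and exon lengths came from GENCODE M21, promoters from RefSeq. Folds are ratios of mean CPM between classes, taken where a gene averaged 5 or more counts per cell, and shares need 100 counts (10 per cell). The trend of spread was a lowess fit (fraction 0.3) of log2 squared CV on log2 mean CPM. Intervals are 95% Clopper-Pearson. The reads carry no molecular identifiers, so that intervals and limits hold counting error alone. At 57118 to 176055 autosomal counts per cell, values of genes near 5 counts are imprecise. With 1 plate and no named cultures, no p-value was computed. The tools were edgeR 4.0.16 (for TMM factors only), statsmodels 0.14.6, scipy 1.17.1, pandas 2.3.3, numpy 2.4.6 and matplotlib 3.10.9 under Python 3.11.15. No pair of cells was identical.

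Genes named in the text are the 3 highest per complex by level per kilobase, the 3 highest and lowest by fold, Mus share, spread and correlation with the mt- level, the X-linked members and the restricted paralogs, and others are marked or serve as examples chosen after their values were seen. A gene that the rule names is not reported here. The members and lists were chosen with earlier results of these data known. Scripts were tested on simulated data for X-Cast O-Mus cells relative to X-Mus X-Cast cells, where 4013 genes passed the count filter. Of the genes changed in the simulation, 182 passed it and were scored. Among these a true log2 fold change of 1 was recovered as 0.98 at the median and one of -1 as -1.05. Alternatives covered denominator, normalization, filters, fold limit, allele, class and cells.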

Additional observations from a re-analysis of the deposited data

Results flagged for a closer look

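The X-Mus O-Cast class of 9 cells was examined for a cell whose gap to the nearest other exceeded Dixon's 95% critical value, which chance exceeds in about 1 in 20 groups. In all cases the cell was E04, the shallowest of the plate, so that these results are not independent of each other. Its OXPHOS percentage was 7.21 (2.57 to 3.53 in the other 8 cells, ratio 0.793). For complex I it was 3.60 (1.04 to 1.54, ratio 0.803), for complex IV 1.57 (0.479 to 0.723, ratio 0.775), for complex V 1.07 (0.356 to 0.715, ratio 0.499) and for assembly factors 0.345 (0.120 to 0.219, ratio 0.559). Complexes II and III and the mt- percentage of E04 did not pass the value.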

How the results depend on the processing

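Of 108 alternative values, 84 stayed within the tolerance set for them and 24 moved. The median log2 fold change in X-Mus O-Cast cells changed sign with TMM factors and with Cast counts alone (-0.03 each) and without the shallowest cell, and the correlation with the mt- level changed sign with another denominator. The median OXPHOS percentage was 2.79 with all allelic counts as the denominator and 2.89 without the members sharing at least 10% of their windows, an alternative chosen after seeing the data. The number of members at least 2-fold higher in X-Cast O-Mus cells was 1 with a mean of at least 1 count (13.5% of all genes), 1 with no filter (16.9%) and 1 at 1.5-fold (15.6%). The number lower was 3 at 1.5-fold (14.1%), 0 of 49 for Mus counts alone (5.96%) and 0 of 54 for structural subunits (5.78%). In X-Mus O-Cast cells the number higher was 4 of 76 with a mean of at least 1 count (14.6% of all genes), 5 of 78 with no filter (18.7%), 2 at 1.5-fold (16.5%), 0 of 62 for Cast counts (7.38%), 0 of 54 for structural subunits (7.48%) and 0 without the shallowest cell (7.97%). The number lower was 6 at 1.5-fold (20.2%), 0 of 54 for structural subunits (10.2%) and 2 without the shallowest cell (9.82%), where the median log2 fold change was -0.22. The pooled Mus share was 40.95%. The Spearman correlation with the mt- level was -0.19 with all allelic counts as the denominator, which then holds the mt- counts, 0.26 within X-Mus X-Cast and 0.47 within X-Mus O-Cast cells. The median residual of spread was -0.91 in X-Mus X-Cast cells alone and -0.91 without the shallowest cell. Where no reason is given, the cause was not tested. No paired analysis was possible because the labels give 1 group without replicate numbers that pair cells. Depth limits the members under 5 counts per cell, and SNP density per gene was not known.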

Other observations

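Atpif1, the inhibitor of ATP hydrolysis by complex V and not matched by the symbol rule, had 788 CPM in the lowest cell, 1516 at the median and 7756 in the highest, which was E04. Its residual of spread was 1.52 with and -0.22 without E04, where its highest value was 2959 CPM. The gene was chosen after its values were seen. Among pairs of members, Atp5g1 and Uqcr10 had the highest Spearman correlation over 47 cells (0.65), and Atp5a1 and Ndufb6 the lowest (-0.63), out of 2145 pairs.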
